A study of Homo sapiens with 8 samples.

Results

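The bone morphogenetic protein (BMP) genes described here are 10: the ligands BMP2, BMP4, BMP6 and BMP7, the inhibitors of DNA binding ID1, ID2 and ID3, the inhibitory SMADs SMAD6 and SMAD7, and the pseudoreceptor BAMBI. They were chosen by name, as ligands of the pathway and as genes commonly read as its output, and were found on the array through the RefSeq accession of each probe. Earlier results of these data were known when these genes were chosen. They are covered by 13 of 42405 non-control probes. Of the 10 genes, 9 passed the filter on dim probes, among 28850 genes tested, and BMP2 did not. LNCaP is a prostate cancer cell line that was established from a lymph node metastasis. The cells received 30 nM of an siRNA to GATA2 (siGATA2) or of a scrambled siRNA (siControl), and total RNA was taken 72 h later. Both groups were grown in the same serum-supplemented medium and received the same transfection reagent. Each group has 4 single-colour Agilent arrays, numbered 1 to 4 as in the labels. Nothing in the labels says whether the arrays of a group came from separate cultures, so p-values measure the spread between arrays, which may be technical.

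BMP ligands are secreted dimers that are cut from a precursor outside or on their way out of the cell. They bind type I and type II serine/threonine kinase receptors, which phosphorylate SMAD1, SMAD5 and SMAD9, and these enter the nucleus with SMAD4. Among the genes most regularly induced are the ID genes, whose products bind E proteins and keep them off DNA, and SMAD6, SMAD7 and BAMBI, which damp the same pathway. In the prostate, BMP6 and BMP7 are made by epithelial cells and have been studied for their part in bone metastasis. GATA2 is a zinc finger transcription factor that acts with the androgen receptor in prostate cells.

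Promoters of 8 of the 10 genes were given in the RefSeq promoter table of build GRCh38.p14, 12 promoters in all. The 250 bases before the start are printed for 5 of them, BMP6 as the ligand with the smallest adjusted p and ID1, ID2, ID3 and BAMBI as target genes that share a pattern across arrays. SMAD6 and SMAD7 share that pattern too, and their promoters are not printed. Capitals mark the GATA motif, spelled AGATAA or AGATAG and also TGATAA or TGATAG, the GC-rich SMAD motif GGCGCC and the SMAD box GTCT, each on either strand, so that GTCT also appears as AGAC. BMP6 lies at chr6:7725849-7726098 on the + strand, ID1 at chr20:31605039-31605288 on the + strand, ID2 at chr2:8681806-8682055 on the + strand, ID3 at chr1:23559502-23559751 on the - strand and BAMBI at chr10:28677271-28677520 on the + strand.
BMP6 promoter: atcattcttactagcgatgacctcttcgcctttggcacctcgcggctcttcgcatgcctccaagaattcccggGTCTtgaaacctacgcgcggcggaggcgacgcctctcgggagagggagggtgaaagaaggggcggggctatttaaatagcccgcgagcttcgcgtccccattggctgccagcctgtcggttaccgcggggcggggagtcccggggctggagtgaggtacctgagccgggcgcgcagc
ID1 promoter: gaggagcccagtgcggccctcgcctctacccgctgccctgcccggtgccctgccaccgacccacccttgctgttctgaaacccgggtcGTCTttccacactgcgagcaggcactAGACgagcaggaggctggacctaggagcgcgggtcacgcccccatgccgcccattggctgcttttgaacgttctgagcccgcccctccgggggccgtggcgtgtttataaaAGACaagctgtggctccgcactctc
ID2 promoter: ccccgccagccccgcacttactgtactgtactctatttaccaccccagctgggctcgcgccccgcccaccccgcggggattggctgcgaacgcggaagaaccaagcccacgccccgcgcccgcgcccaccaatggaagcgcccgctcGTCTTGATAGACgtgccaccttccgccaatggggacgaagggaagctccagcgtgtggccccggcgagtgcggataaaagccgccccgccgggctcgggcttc
ID3 promoter: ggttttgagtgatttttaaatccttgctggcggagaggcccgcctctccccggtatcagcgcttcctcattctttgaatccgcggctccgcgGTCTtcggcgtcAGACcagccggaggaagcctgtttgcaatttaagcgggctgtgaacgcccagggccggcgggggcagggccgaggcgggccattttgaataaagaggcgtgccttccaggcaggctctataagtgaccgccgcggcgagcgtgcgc
BAMBI promoter: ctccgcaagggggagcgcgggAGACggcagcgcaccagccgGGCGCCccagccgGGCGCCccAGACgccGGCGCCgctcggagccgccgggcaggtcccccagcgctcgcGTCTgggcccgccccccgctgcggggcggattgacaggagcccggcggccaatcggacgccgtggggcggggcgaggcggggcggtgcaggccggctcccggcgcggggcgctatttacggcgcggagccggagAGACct
The BMP6 window held 1 GTCT and neither a GATA motif nor GGCGCC, with a GC content of 64.4%. The ID2 window was the only member promoter of the 12 with a GATA motif, a single TGATAG that begins 99 bases before the start and shares its last 2 bases with an AGAC. The BAMBI window held 3 copies of GGCGCC, beginning 209, 196 and 181 bases before the start, and 4 copies of GTCT. ID1 held 3 and ID3 held 2 copies of GTCT, and neither held a GATA motif or GGCGCC. Of all 35116 promoters of the same length, 22.3% held a GATA motif, 16.4% held GGCGCC and 77.5% held GTCT. The palindrome GTCTAGAC, which contains GTCT on both strands, stood in the SMAD6 promoter and in 0.182% of all promoters. A match is a description of the letters, and its absence says only that these letters are not in this window.

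The label of the knockdown was checked first. The probe of GATA2 read 12.61, 12.54, 11.57 and 11.40 on the log2 scale on siGATA2 arrays 1 to 4 and 11.74, 11.28, 11.10 and 11.29 on siControl arrays 1 to 4. GATA2 signal was thus not lower on the arrays labelled siGATA2, with a log2 difference of 0.68 (SE 0.312, limma, adjusted p = 0.154). Every direction below is that of the arrays labelled siGATA2 against those labelled siControl, and rests on these labels. All log2 values are of the quantile-normalized processed signal, a probe is detected where Feature Extraction marks it as well above background and dim where it does not, and a gene is called where its adjusted p from limma, over all 28850 genes, is under 0.05. The siGATA2 arrays detected 34353 to 36968 probes and the siControl arrays 24241 to 34796, with siControl arrays 1 and 3 the lowest of the 8. All 10 markers of luminal prostate cells were well above background on all 8 arrays, as against 5 of 19 markers of stromal, immune, endothelial and basal cells, whose summed log2 level was 11.44 to 11.49 on the siGATA2 arrays and 11.39 to 11.57 on the siControl arrays. COL3A1, LUM and KRT5 were below the filter. Of the 15 other-cell markers tested, PDGFRB and VWF were called lower and PTPRC and CD68 higher, and their part in the results below was not tested.

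Of the 9 BMP genes tested, BMP6 and BMP7 fell, SMAD7 rose, and BMP4, ID1, ID2, ID3, SMAD6 and BAMBI were not called. The 3 calls stand beside a background of 26.5% of all genes called in either direction. By direction, 14.2% of all genes were called lower and 12.3% higher. Both falls were of at least 2-fold, as in 7.13% of all genes, and the rise was of less than 2-fold, where 4.52% of all genes rose by at least 2-fold. Among genes with a symbol, 34.1% were called. The median log2 fold change of the 9 genes was 0.31, against 0.09 over all genes tested. That median is the value of ID1, which was not called, and it changed sign between the alternatives given below. It was -0.27 with E1A spike-in scaling (all genes -0.43) and -0.22 with array weights (all genes 0.0073). With slide row as a block it was 0.51 (all genes 0.086). The arrays measured RNA of whole cultures, so fewer expressing cells and less RNA per cell cannot be told apart.

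BMP6, a ligand that signals mainly through SMAD1, SMAD5 and SMAD9, read 8.93, 8.93, 8.43 and 8.50 on siGATA2 arrays 1 to 4. On siControl arrays 1 to 4 it read 10.74, 10.69, 10.78 and 10.63. The groups did not overlap, and every siGATA2 array lay more than 1 log2 unit under every siControl array. Groups that do not overlap were seen in 32.6% of all genes tested. The means were 8.70 ± 0.273 (SD, n = 4) and 10.71 ± 0.0626 (SD, n = 4), a fold of 4.04 down. The log2 fold change of BMP6 was -2.01 (SE 0.147, limma, adjusted p = 6.11e-05). An exact two-sided permutation test of the 8 values gave p = 0.0286, the smallest that 4 against 4 allows. The siControl values were close together, with only 6.37% of all genes showing a smaller SD there. For BMP6, siGATA2 arrays 3 and 4 were the lowest 2 of the 8 arrays, as in 10.2% of the 28730 genes with a value on every array. They also had the lower GATA2 signal of that group. BMP7 went the other way, with the mean of arrays 3 and 4 above that of arrays 1 and 2 by 0.45. A link to the GATA2 signal was not tested.

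BMP7, a ligand of the same subfamily, showed the largest difference of the 9 genes tested when each was read by its brightest probe, and a smaller one than BMP6 when its probes were averaged. Its brightest probe, A_23_P68487, read 6.85, 6.60, 6.98 and 7.38 on siGATA2 arrays 1 to 4. It read 9.26, 10.00, 9.82 and 10.14 on siControl arrays 1 to 4. No siGATA2 array reached the lowest siControl array. The means were 6.95 ± 0.326 (SD, n = 4) and 9.81 ± 0.384 (SD, n = 4), a fold of 7.22 down. The log2 fold change was -2.85 (SE 0.235, limma, adjusted p = 0.000101), and the exact permutation test gave p = 0.0286. BMP7 has 3 probes under 1 accession, and they did not move alike, with 27% of all probes called when each was fitted alone. Probe A_23_P154643 had a log2 fold change of -0.49 (SE 0.172, limma over all probes, adjusted p = 0.0716) with overlapping groups. Without siControl array 1 that probe was called lower, at -0.60 (limma, adjusted p = 0.0254). Probe A_24_P91566, which was well above background on 2 of the 4 siControl arrays, read 3.55 to 4.02 on the siGATA2 arrays and 2.20, 6.01, 5.91 and 6.19 on siControl arrays 1 to 4. Its log2 fold change was -1.26 (SE 0.846, limma, adjusted p = 0.311). Without siControl array 1 it was -2.22 (limma, adjusted p = 0.000117), and leaving out any other single array gave no call of that probe. With the 3 probes averaged, the gene still fell, by 1.54 on the log2 scale (limma, adjusted p = 0.0221).

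The other pair of ligands gave little signal. BMP4, a ligand best known from early patterning, read 4.81, 4.33, 4.63 and 4.42 on siGATA2 arrays 1 to 4 and 3.96, 5.10, 3.74 and 4.92 on siControl arrays 1 to 4. Its probe was well above background on all 4 siGATA2 arrays but, in the siControl group, on arrays 2 and 4 only, and those were the 2 highest of the 8. Its log2 fold change of 0.12 (SE 0.322, limma, adjusted p = 0.816) was within the spread between arrays. BMP2, the closest relative of BMP4, was never well above background, with 1.77 to 1.91 on the siGATA2 arrays and 1.79 to 3.00 on the siControl arrays. It was not tested and no fold is given for it.

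**Figure D1:**
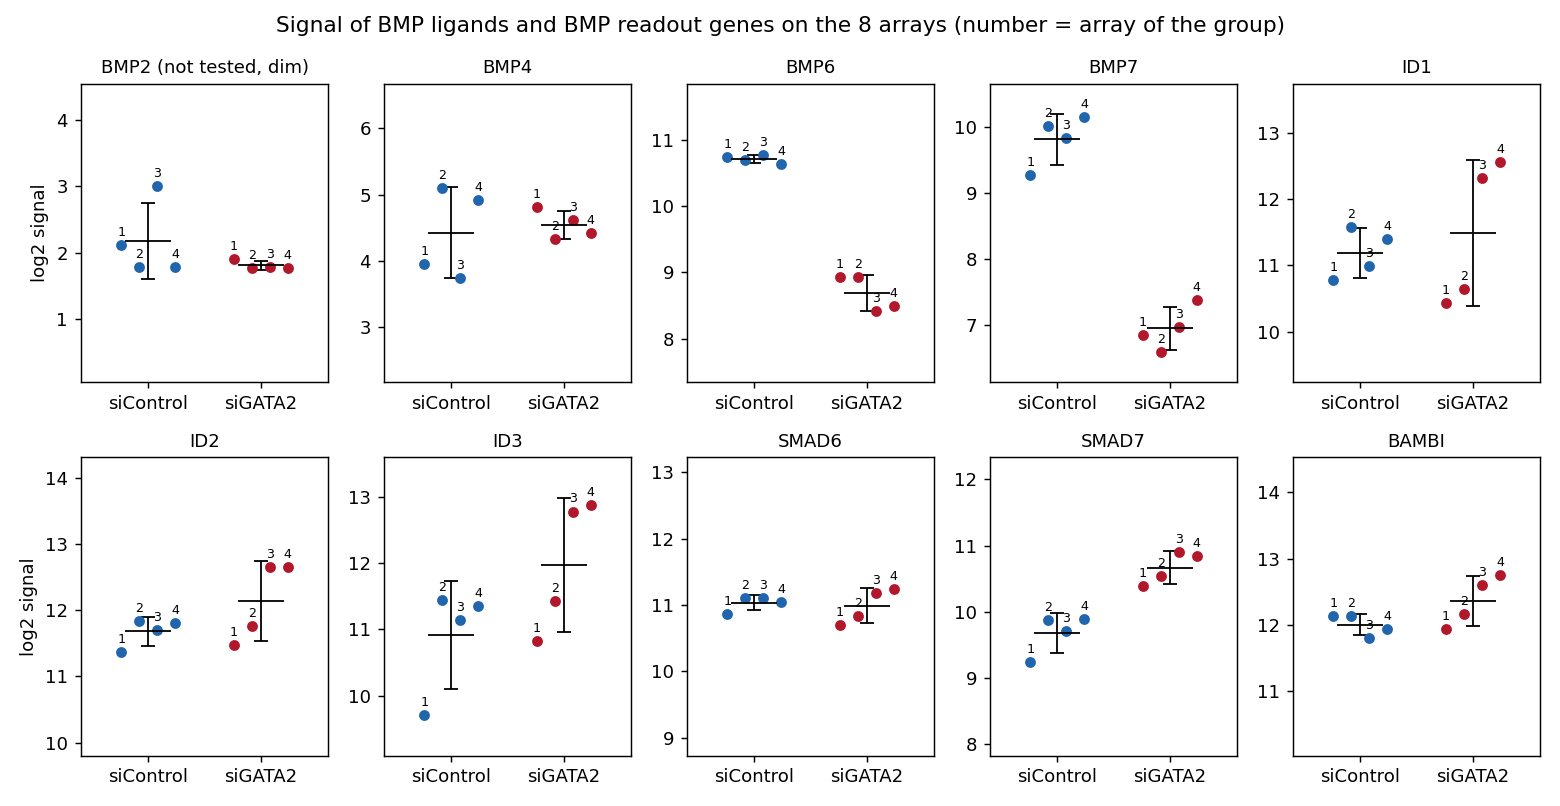
Signal of the 10 BMP genes on each array, on the log2 scale of the quantile-normalized processed signal, with siControl in blue and siGATA2 in red. Numbers are the array numbers of the labels, horizontal lines the group means and bars the SD over 4 arrays, and every panel spans the same range of log2 units. BMP6 and BMP7 lay lower on every siGATA2 array and SMAD7 higher, while ID1, ID2 and ID3 were spread widely over the siGATA2 arrays.

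The ID genes were not called, and they were spread over the siGATA2 arrays more than over the siControl arrays. ID1, the ID gene most used as a readout of BMP signalling, read 10.43, 10.65, 12.32 and 12.56 on siGATA2 arrays 1 to 4 and 10.77, 11.58, 10.99 and 11.39 on siControl arrays 1 to 4. Arrays 1 and 2 of the siGATA2 group thus lay under every siControl array and arrays 3 and 4 above every one. Its means were 11.49 ± 1.11 (SD, n = 4) and 11.18 ± 0.370 (SD, n = 4), and its siGATA2 SD was larger than that of 97.4% of all genes. The log2 fold change of ID1 was 0.31 (SE 0.516, limma, adjusted p = 0.695).

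ID3 had the same split and a lower siControl array besides. It read 10.82, 11.42, 12.78 and 12.87 on siGATA2 arrays 1 to 4 and 9.70, 11.44, 11.14 and 11.36 on siControl arrays 1 to 4. Only siGATA2 arrays 3 and 4 stood above the siControl range, and siControl array 1 was the lowest of the 8. The log2 fold change was 1.06 (SE 0.574, limma, adjusted p = 0.219). ID2, which besides BMP signalling follows other inputs in epithelial cells, read 11.48, 11.77, 12.65 and 12.64 on siGATA2 arrays 1 to 4 and 11.37, 11.84, 11.70 and 11.80 on siControl arrays 1 to 4. Here too siGATA2 arrays 3 and 4 were the highest 2, and arrays 1 and 2 lay within the siControl range. Its log2 fold change was 0.46 (SE 0.292, limma, adjusted p = 0.294). A second ID2 probe, A_32_P69368, read 10.40, 10.58, 11.52 and 11.76 on siGATA2 arrays 1 to 4 and 10.54 to 10.86 on the siControl arrays, with a log2 fold change of 0.31 (limma, adjusted p = 0.499).

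SMAD7, an inhibitory SMAD that blocks type I receptors of the BMP and the TGF-beta arm alike, was the only one of the 3 intracellular and membrane inhibitors to be called. It read 10.39, 10.54, 10.90 and 10.85 on siGATA2 arrays 1 to 4 and 9.25, 9.88, 9.71 and 9.89 on siControl arrays 1 to 4. Every siGATA2 array lay above every siControl array. The means were 10.67 ± 0.245 (SD, n = 4) and 9.68 ± 0.301 (SD, n = 4), a fold of 1.97 up. The log2 fold change was 0.98 (SE 0.189, limma, adjusted p = 0.00639), and the exact permutation test gave p = 0.0286. The call was lost where arrays were scaled to the 7 E1A spike-in probes (log2 fold change 0.40, limma, adjusted p = 0.726). This scaling moved the median of all genes to -0.43, and relative to that median SMAD7 stood at 0.83. The E1A probes averaged 11.13 on siControl array 1, as against 13.45 to 13.83 elsewhere, and with that array left out the same scaling gave 0.68 (limma, adjusted p = 0.0467).

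SMAD6, which acts more on the BMP arm than on the TGF-beta arm, did not follow SMAD7. It read 10.70, 10.84, 11.17 and 11.25 on siGATA2 arrays 1 to 4 and 10.87, 11.11, 11.10 and 11.05 on siControl arrays 1 to 4. The siControl values lay inside the siGATA2 range, and the log2 fold change was -0.04 (SE 0.150, limma, adjusted p = 0.865). BAMBI, a membrane protein that resembles a type I receptor but lacks the kinase, read 11.94, 12.16, 12.60 and 12.75 on siGATA2 arrays 1 to 4 and 12.14, 12.13, 11.81 and 11.93 on siControl arrays 1 to 4. Its siGATA2 arrays 3 and 4 were again above all others, and its log2 fold change was 0.36 (SE 0.196, limma, adjusted p = 0.224).

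The split of the siGATA2 group ran through the readout genes. In 6 of the 9 genes tested, ID1, ID2, ID3, SMAD6, SMAD7 and BAMBI, siGATA2 arrays 3 and 4 were the highest 2 of the 8 arrays. The same held for 6036 of 28730 genes with a value on every array, or 21% of them. GATA2 itself was highest on siGATA2 arrays 1 and 2. The titles of siGATA2 arrays 1 and 2 carry the letters A and B and those of arrays 3 and 4 the letters E and F, and the labels do not say what a letter stands for. The mean of arrays 3 and 4 minus that of arrays 1 and 2 was 1.90 for ID1, 1.70 for ID3, 1.03 for ID2, 0.62 for BAMBI, 0.44 for SMAD6 and 0.41 for SMAD7 on the log2 scale. It was -1.09 for GATA2, -0.47 for BMP6 and 0.45 for BMP7. The siControl group holds 1 array with the letter B and 3 with letters D, F and G. With array weights ID3 was 0.11 and ID2 0.011, and neither was called. With letters A and B set against D to G as a block, a fit chosen after the data were seen, ID3 was called higher at 1.48 (limma, adjusted p = 0.000291). In the same fit ID2 was called higher at 0.65 (limma, adjusted p = 0.00962), and ID1 was not called. With E1A scaling added to that block, ID2 was -0.13 and ID3 0.70, and neither was called. That fit gave each tested member the same SE, 0.42, so its calls do not reflect the spread of each gene. Within letters D to G, the siGATA2 minus siControl difference was 1.51 for ID3 and 1.12 for ID1, and within letters A and B it was 1.42 for ID3 and -0.23 for ID1. Within letters A and B there is 1 siControl array, array 1, which was also the lowest of all 8 in ID3. The part of the letters in these results was not tested.

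**Figure D2:**
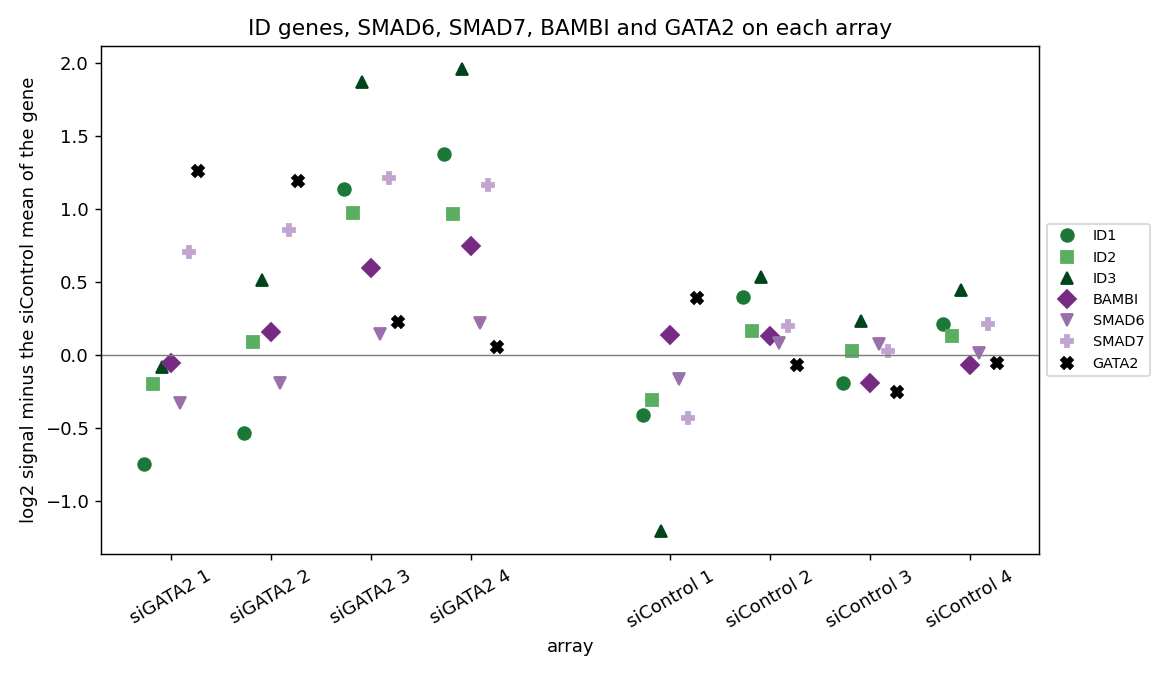
Difference of each array from the siControl mean of the gene, on the log2 scale, for ID1, ID2, ID3, BAMBI, SMAD6, SMAD7 and GATA2. Each symbol is 1 array and symbols are set side by side for legibility. The readout genes were highest on siGATA2 arrays 3 and 4, and GATA2 on siGATA2 arrays 1 and 2.

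The arrays lay on 1 slide, in rows that were not balanced, with siGATA2 arrays 1, 2 and 3 and siControl array 4 in row 1 and the others in row 2. Within rows 1 and 2, the differences were -1.87 and -2.24 for BMP6, -3.33 and -2.31 for BMP7, and 0.71 and 1.23 for SMAD7. The groups of these 3 called genes did not overlap, so any split by row had to keep their direction, and this is no check on the rows. For ID1 they were -0.26 and 1.44, and the sign differed between the rows. Each row has only 1 array of one of the groups, so no test was made within it.

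**Figure D3:**
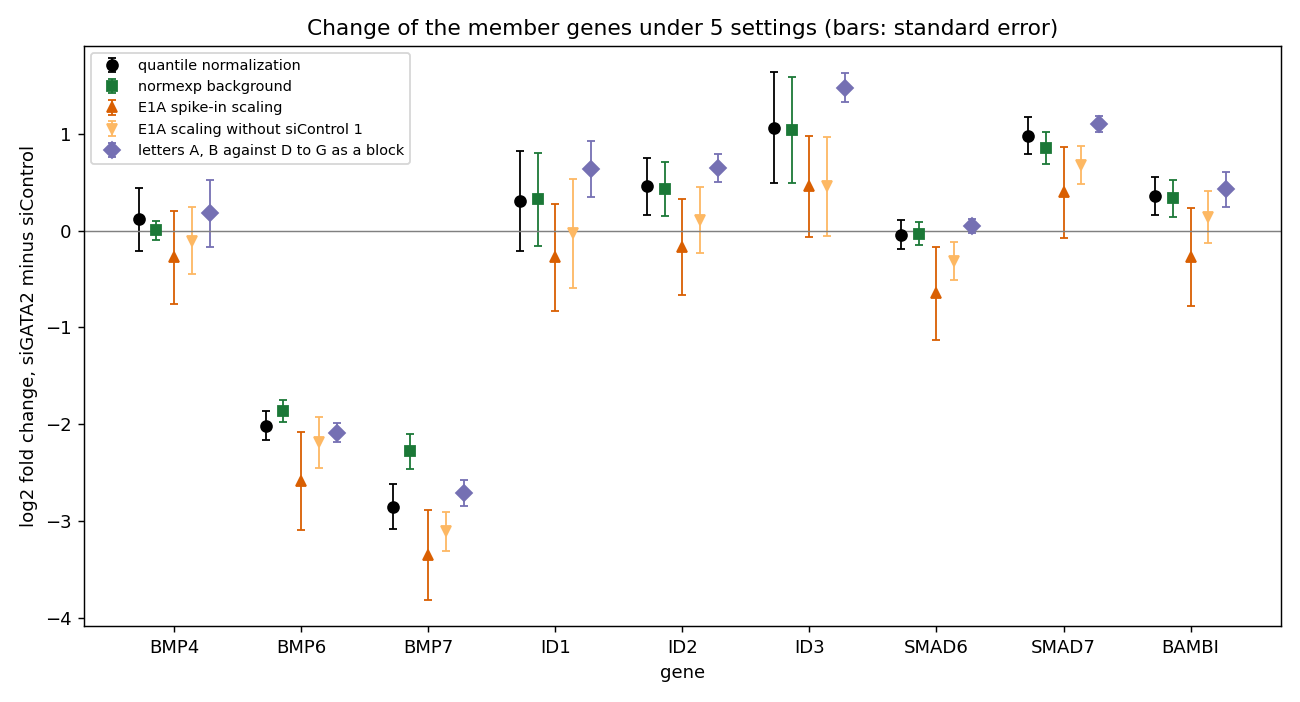
Log2 fold change of the 9 tested BMP genes, siGATA2 minus siControl, under 5 ways to scale, correct or block the arrays, with bars of 1 standard error. BMP6 and BMP7 lay below -1 in all 5, SMAD7 above 0 in all 5, and BMP4, ID1, ID2, SMAD6 and BAMBI fell on both sides of 0.

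Several genes had a pattern across the 8 arrays close to that of BMP6. Among 5334 called genes with a symbol and well above background on all arrays, the 5 with the highest Pearson correlation with BMP6 were POLR2H (0.9991), JOSD1 (0.9991), EFS (0.9990), CDCA7 (0.9985) and SBK1 (0.9983). POLR2H encodes a subunit shared by the nuclear RNA polymerases, and CDCA7 a protein tied to chromatin remodelling. A correlation over 0.99 was seen for 225 genes, and being called in the same comparison is part of how they were chosen. After the group means were taken out, the correlations of the same 5 genes were 0.94 to 0.99. These genes were picked as the highest of 5334 on the same 8 arrays, so high values are partly built in by that choice. How many other genes reach such values within the groups was not counted. All 5 fell, with log2 fold changes of -0.81 for POLR2H and -2.84 for CDCA7 at the ends of the range.

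The rest of the pathway was read from lists of 100 genes in all, of which 90 were tested. Of these, 12 fell (13.3%), 16 rose (17.8%) and 62 were not called, and their median log2 fold change was 0.16. Of all genes, 14.2% were called lower and 12.3% higher. All 90 have a symbol, and among genes with a symbol 19% were called lower and 15.1% higher. These shares stand beside each count of the lists below. With E1A scaling, CCN2 was the only gene of the 16 still called higher, and RGMA, PMEPA1, TGIF1 and TCF3 were the 4 of the 12 still called lower, while TLL2 did not pass the filter there. Changes in the lists below are given as log2 fold changes. Among the other BMP and growth differentiation factor (GDF) ligands, 1 of 12 fell and 1 rose. GDF11, which signals through the activin receptors, fell by 0.79 (limma, adjusted p = 0.000924). The gene counted as higher, BMP15, was dim on every siControl array, so it has no fold, and its call (limma, adjusted p = 0.0457) was lost in 17 of 24 alternatives and in 7 of the 8 fits that left out 1 array, all but that without siControl array 1.

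Of 11 receptors and co-receptors, 3 rose and 2 fell. BMPR2, the type II receptor specific to BMPs, rose by 0.97 (limma, adjusted p = 0.00130). ACVR2A, a type II receptor shared with activins, rose by 0.61 (limma, adjusted p = 0.00229). Its paralog ACVR2B had 0.38 (limma, adjusted p = 0.0487), and this call was lost whichever single array was left out. RGMA, a membrane-anchored BMP co-receptor, fell by 2.47 (limma, adjusted p = 0.00220), and 3 of 4 siGATA2 arrays detected its probe. It was called lower under all 25 alternatives, with values from -3.10 to -0.95. NEO1, the receptor that binds RGMA, fell by 0.62 (limma, adjusted p = 0.00390), with -1.32 to -0.40 over the alternatives. That call was lost under 75th percentile scaling and under E1A scaling with or without siControl array 1. The type I receptors BMPR1A and ACVR1 were not called.

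Of 10 extracellular antagonists, 2 rose and 0 fell. CHRD encodes chordin, which traps BMP ligands, and rose by 1.69 (limma, adjusted p = 0.00363). FSTL3, which binds activins and some BMPs, rose by 0.86 (limma, adjusted p = 0.000296). NOG, FST, CER1, BMPER and CRIM1 were too dim to be tested. Among the proteinases, 2 of 6 fell and 1 rose. FURIN, which cuts BMP precursors, fell by 1.19 (limma, adjusted p = 0.00139), with -1.85 to -0.77 over the alternatives. BMP1, which is no BMP ligand but a proteinase that cleaves chordin and procollagen, rose by 1.48 (limma, adjusted p = 0.00304). The other gene counted as lower, TLL2, was dim on all 8 arrays and has no fold.

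Of 16 SMAD transducers and regulators, 1 fell and 2 rose, while SMAD1 and SMAD5, the main BMP transducers, were not called. SMAD9, the third BMP transducer and itself a BMP target, fell by 0.95 (limma, adjusted p = 0.0183). That call was lost without siControl array 2 or 4, with an adjusted p of up to 0.0522 from limma. SMAD4, the partner of all receptor SMADs, rose by 0.73 (limma, adjusted p = 0.00697). LEMD3, an inner nuclear membrane protein that binds receptor SMADs, rose by 0.55 (limma, adjusted p = 0.0127). Under the alternatives the lowest log2 fold changes of ACVR2A, SMAD4 and LEMD3 were -0.12, -0.14 and -0.31, so their direction was not kept in all of them. Of 9 other BMP target genes, 2 fell and 0 rose, and ID4, MSX1, MSX2, DLX5, RUNX2, HEY1 and ATOH8 were not called. Besides SMAD9 the list holds HAMP, the hepcidin gene, which fell by 0.68 (limma, adjusted p = 0.0273), a call lost when siGATA2 array 1 or 2 or siControl array 2, 3 or 4 was left out (adjusted p up to 0.0717).

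The TGF-beta and activin arm, which shares SMAD4 and SMAD7 with BMP signalling, had 5 of 15 genes higher and 1 lower. Leaving out 1 array at a time gave 3 to 5 higher. Of all genes with a symbol, 15.1% were called higher and 19% lower. LTBP1 lost its call without siGATA2 array 3 or 4 or any 1 siControl array, and LTBP3 without siGATA2 array 1 or 2 or siControl array 2 or 4. TGFB3 had a log2 fold change of 2.73 (limma, adjusted p = 0.00186), and 1 of 4 siControl arrays detected its probe. Its siControl values were 1.81, 3.57, 1.82 and 3.13 on arrays 1 to 4 and its siGATA2 values 5.10 to 5.44, and over the alternatives the log2 fold change ran from 0.60 to 3.06, so its size is uncertain. SMAD3, a transducer of this arm, rose by 1.16 (limma, adjusted p = 0.00266). TGFBR3, a co-receptor also known as betaglycan, fell by 1.09 (limma, adjusted p = 0.00457), with -1.70 to -0.70 over the alternatives. Among 10 TGF-beta target genes, 2 rose and 2 fell, in both cases by at least 2-fold. CCN2, a matricellular protein, rose by 4.57 (limma, adjusted p = 0.000193), and 2 of 4 siControl arrays detected its probe. Over the alternatives it ran from 2.37 to 4.84. LTBP2 rose by 1.20 (limma, adjusted p = 0.0336), also with 2 of 4 siControl arrays detecting it, and that call was lost when any 1 of the siGATA2 arrays or siControl array 1 was left out (adjusted p up to 0.0779). PMEPA1, an androgen-responsive gene whose product restrains SMAD signalling, fell by 2.31 (limma, adjusted p = 2.08e-05). TGIF1, a transcriptional repressor that binds SMADs, fell by 1.29 (limma, adjusted p = 0.00112).

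The E proteins that the ID products bind are a list of 3. TCF3 fell by 1.70 (limma, adjusted p = 0.000656) and TCF4 by 0.80 (limma, adjusted p = 0.00111). TCF12 was not called.

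**Figure D4:**
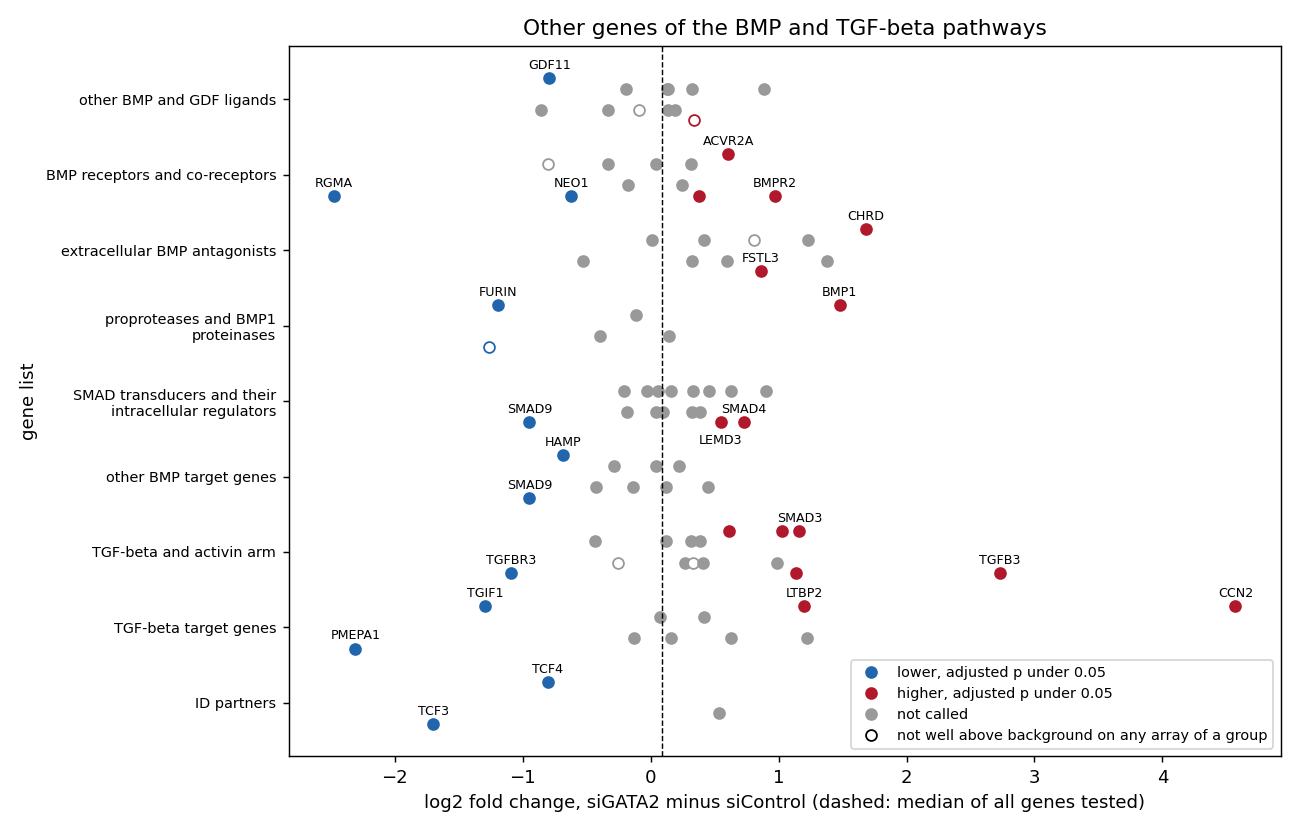
Log2 fold change, siGATA2 minus siControl, of the 90 other genes of the BMP and TGF-beta pathways that were tested, by list. A gene on 2 lists is drawn in both. Colours give the call at an adjusted p under 0.05, open circles are genes that were dim on every array of a group, and the dashed line is the median of all genes, 0.09. PMEPA1 and RGMA lay farthest to the left and CCN2 and TGFB3 farthest to the right.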

How the data were processed

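The members and gene lists were chosen with earlier results of these data known. Groups and replicate numbers follow the sample labels. Per array, the authors deposited spot intensity values from Feature Extraction 11.0.1.1. Used here were its processed signal, which is background-corrected, and its quality flags, and for 1 alternative the median signal and local background. The authors also deposited a matrix of log2 values, used as an alternative. As methods, the study gives quantile normalization in its analysis software, removal of probes without annotation and of probes under 3 on the log2 scale, and a t-test. The array design given in the file headers is not the one the methods name.

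Log2 values of unflagged spots were averaged per probe, followed by quantile normalization across the 8 arrays. Probes were named through RefSeq accessions (26364 of 27902 matched a symbol). The 1914 probes without annotation and those averaging under 3 were removed, and the brightest of the 35514 remaining probes stood for each of 28850 genes. The groups were compared with lmFit and eBayes of limma 3.58.1 in R 4.3.3, with Benjamini-Hochberg adjustment over all genes tested. This fit was tested on simulated data with noise drawn independently for each gene and array. Those data hold no split of arrays shared between genes, so they do not cover that feature of these arrays. Exact permutation tests were two-sided. A probe that was dim throughout a group, that is not marked as well above background there, has no fold. No spot was saturated. Arrays have no read depth, and the 4 arrays per group limit the precision.

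Outside the members, the genes named are GATA2, in each list up to 2 called genes with the largest fall and up to 2 with the largest rise detected throughout 1 group or both, and the 5 genes most correlated with BMP6. ACVR2B, BMP15, TLL2, LTBP1 and LTBP3, and genes named as not called or as dim, were added after their values were seen. Promoters came from the RefSeq promoter table of GRCh38.p14. Array coordinates follow another build and were not used.

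The alternatives scaled arrays to E1A spike-in probes or to the 75th percentile, or used normexp (offset 50), another filter on dim probes, the mean over the probes of a gene, the log2 matrix, the methods' t-test, an intensity trend, array weights, blocks by replicate number, title letter and slide row, and leaving out arrays. Grouped title letters as a block and E1A scaling without siControl array 1 were added after seeing the data. Arrays with the same number were compared by their deviations from the group mean, whose correlations were 0.54, -0.31, 0.17 and 0.22, so the replicate numbers were not taken to pair the arrays.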

Additional observations from a re-analysis of the deposited data

Results flagged for a closer look

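In 2 of 74 groups of 4 values examined, 1 array lay apart from the other 3, and chance flags about 1 in 20 such groups. SMAD9 read 9.44 on siControl array 1 against 9.80 to 9.84 on the other siControl arrays, a gap of 0.878 of the range. LEMD3 read 11.75 on the same array against 11.36 to 11.41 on the others, a gap of 0.867 of the range. Neither gene lost its call without that array.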

How the results depend on the processing

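BMP6 (-2.87 to -1.82) and BMP7 (-3.46 to -1.54) stayed called lower under all 25 alternatives. SMAD7 was called higher under 23, with 0.40 under E1A scaling and 0.32 with the letter block and E1A scaling together. With array weights GATA2 was called higher at 1.1, BMP4 was -0.36, ID1 -0.56, ID2 0.011 and ID3 0.11. With the letter block GATA2 was called higher at 0.47, ID2 was 0.65, ID3 1.48 and SMAD6 0.046. With E1A scaling BMP4 was -0.28, ID1 -0.27, ID2 -0.17 (its second probe -0.28) and BAMBI -0.27. With the letter block and E1A scaling GATA2 was -0.34, BMP4 -0.43, ID1 -0.12, ID2 -0.13 (second probe -0.26) and BAMBI -0.35. In that fit GATA2 and each tested member had the same SE, 0.42. Its calls, and the counts of genes called in it, thus do not reflect the spread of each gene. With E1A scaling and siControl array 1 left out BMP4 was -0.10 and ID1 -0.025. With slide row as a block BMP4 was -0.088 and SMAD6 0.040. Without siControl arrays 1 and 3 together BMP4 was -0.46. Leaving out 1 array at a time gave -0.11 to 0.34 for BMP4, -0.051 to 0.66 for ID1 and -0.13 to 0.055 for SMAD6, and none of these passed the test.

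Counts of genes called lower were 1899 with E1A scaling, 7537 with array weights and 7254 with the letter block and E1A scaling, against 4086. Those called higher were 141, 8042 and 309 in the same order, 5338 with title letter as a random block, 2184 with slide row, 7198 with the letter block and 1710 with E1A scaling without siControl array 1, against 3558. Members called higher were 0 with E1A scaling, 3 with the letter block and 0 with both. Pathway genes called lower were 5 with E1A scaling, 21 with array weights and 21 with the letter block and E1A scaling, against 12. Those called higher were 1 with E1A scaling, 30 with the letter block, 2 with both and 8 with E1A scaling without siControl array 1, against 16. The medians of all genes were -0.43 with E1A scaling and 0.18 with 75th percentile scaling. With the replicate block the log2 fold change of BMP6 was -2.01 (adjusted p = 0.00220 from limma), and of the siGATA2 arrays 1 of 4 was closest to the siControl array of its own number. The causes were not tested. Slide as a block was not run, since all arrays lay on 1 slide. Signal over background, lowest on siControl arrays 1 and 3, limits BMP2, BMP4 and the dim probes of BMP7.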
